A study of Drosophila melanogaster with 4 samples.

Results

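The regions described here are stretches of the fly X chromosome that were listed as enriched for HP1b and that lie outside the 2 Mb of sequence next to the centromere. They come from a combined list of enriched regions, called clusters, for the replicate set. Every row typed as enrichment on X that ended before position 20422828 of FlyBase release 5 was taken. The rule found 1585 members among 7807 enriched clusters of the combined list, 1656 of which lay on X. The last member inside the limit ran from 20394938 to 20397186 with a score of 1.11, and the first cluster beyond it ran from 20453803 to 20454979 with a score of 0.357. The list also held 12 rows typed as depletion, and 0 of them lay on X.

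HP1b was mapped by ChIP-seq (sequencing of immunoprecipitated chromatin) in nuclei from heads of Drosophila melanogaster with the HP1b antibody Q4114. All 4 samples carried the wild-type strain Oregon-R and the stage label mixed adult, with no mutant and no treatment: 2 ChIP samples (replicates 1 and 2) and 2 inputs of the same numbers. Flies were raised in population cages, their sex is not given in the labels, and the labels do not say whether the replicates came from separate collections, so the spread between them may be technical. No values of the inputs were used, the lists hold no read totals, and the depth behind each cluster is therefore unknown.

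HP1b belongs to the heterochromatin protein 1 family, whose members carry a chromodomain, which binds methylated histone H3, and a chromoshadow domain, through which they pair and contact partner proteins. In flies the paralog HP1a is concentrated in pericentric heterochromatin, whereas HP1b is found in heterochromatin and euchromatin alike. The X is hemizygous in males, where the dosage compensation complex binds many of its active genes. The lists name no genes and no genome of release 5 was used here, so the members are given by position, width, spacing and score, without sequence or annotation.

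HP1b clusters were closer together and wider on this part of X than on the autosomal arms 2L, 3L and 3R, each taken without its own 2 Mb next to the centromere. In replicate 1, 1340 clusters covered 19.1% of the 20.4 Mb of X, and in replicate 2, 1306 clusters covered 18.5%. On the separate autosomal arms coverage was 13.7% to 14.4% in replicate 1 and 13.02% to 13.7% in replicate 2. X was above every one of these arms in both replicates, and the groups did not overlap.

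The density of clusters was 64.8 ± 1.18 per Mb on X and 51.2 ± 1.50 per Mb on the 3 autosomal arms pooled (SD, n = 2). The mean width was 2900 ± 18.7 bp on X and 2651 ± 16.7 bp on the arms (SD, n = 2). Both differences were larger than the spread between replicates. The ratio of X to arm coverage was 1.37 in replicate 1 and 1.39 in replicate 2. It was the product of a density ratio of 1.25 and 1.27 and a mean width ratio of 1.09 in each replicate. Over all clusters, most of the difference in coverage thus lay in their number. X and arms of a replicate share a library, and with 2 replicates the exact two-sided sign-flip test cannot go below p = 0.5, so no p-value is given for any of these differences.

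In the combined list, which has no replicate, the 1585 members covered 22.6% of X and 1219, 1427 and 1512 clusters covered 15.4%, 16.3% and 15.4% of 2L, 3L and 3R. Coverage in the combined list was 1.20 times the replicate mean on X and 1.15 to 1.16 times on the 3 arms. The combined list thus added more cluster sequence on X, relative to the replicate lists, than on any of the arms compared.

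Along X the coverage rose and fell over short distances. In the 81 full windows of 250 kb, counted from the telomere end, coverage ranged from 2.16% to 36.04% with a median of 17.9% in replicate 1, and from 2.19% to 36.4% with a median of 17.4% in replicate 2. The medians of 2L, 3L and 3R were 13.5%, 14.1% and 13.5% in replicate 1 and 13.3%, 13.2% and 12.2% in replicate 2. The spread of windows relative to their mean (coefficient of variation) was 0.442 ± 0.0156 on X (SD, n = 2). It was 0.431 on X against 0.435 to 0.512 on the arms in replicate 1, and 0.453 against 0.450 to 0.538 in replicate 2, so X was below the arms in replicate 1 and within their range in replicate 2.

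**Figure D1:**
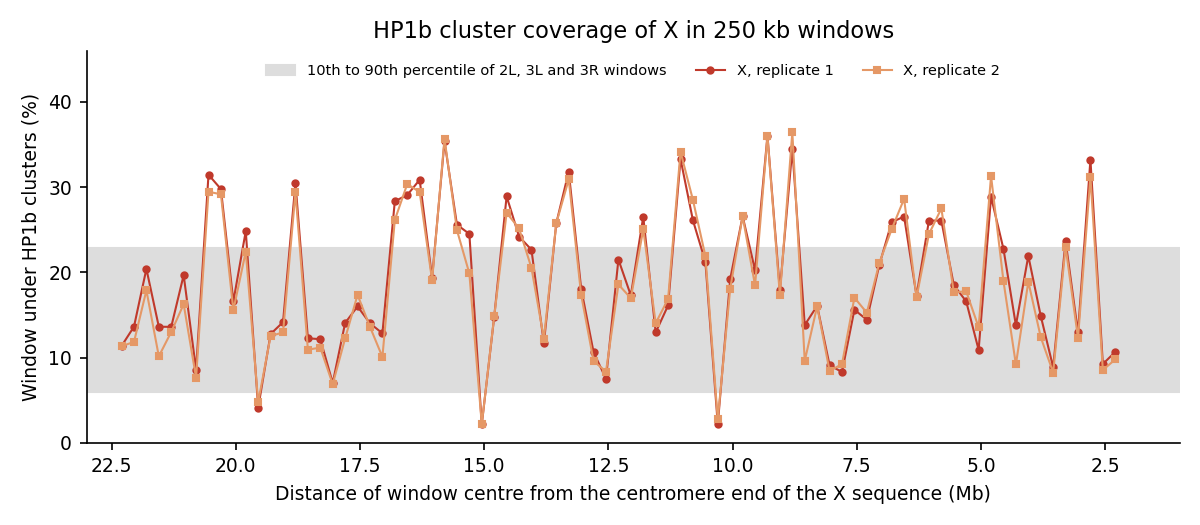
HP1b cluster coverage of X in 250 kb windows. Each point is the percent of a full window under clusters (vertical axis) at the distance in Mb of the window's centre from the centromere end of the X sequence (horizontal axis), with 1 line per replicate, and the grey band spans the mean over replicates of the 10th and of the 90th percentile of the windows of 2L, 3L and 3R. Both replicates follow the same peaks up to 36.4% and the same troughs down to 2.16%.

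High-coverage windows were frequent on X and low ones rare. The 90th percentile of the 277 windows of the 3 arms was 23.2% in replicate 1 and 22.7% in replicate 2, and by construction 10.1% of those windows lay above it. Of the 81 windows of X, 27 (33.3%) lay above it in replicate 1 and 25 (30.9%) in replicate 2. Below the 10th percentile of the arm windows (6.19% and 5.79% coverage), which 10.1% of arm windows fell short of, X had 3 windows in each replicate (3.70%). The highest window of all was not on X: a window of 2L reached 40.4% in replicate 1 and 41.6% in replicate 2.

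**Figure D2:**
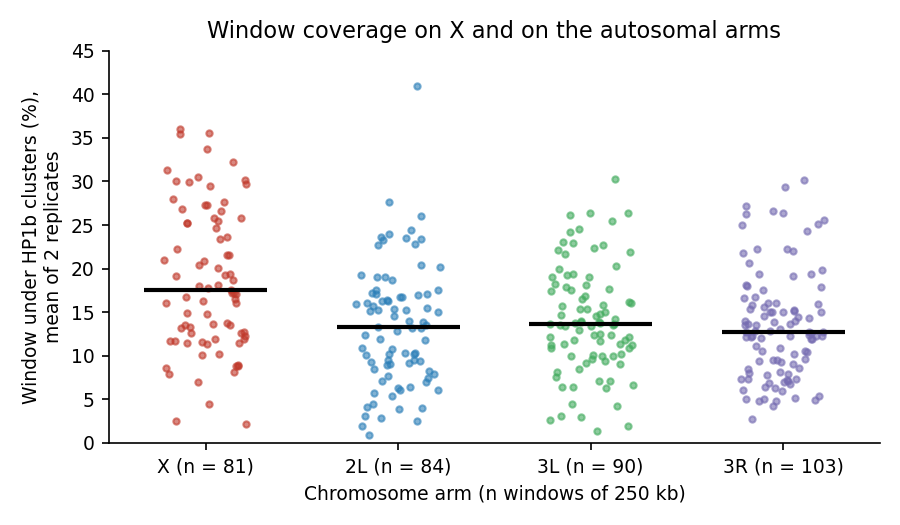
Coverage of single 250 kb windows on X and on 2L, 3L and 3R, as the mean of 2 replicates. Each point is a window, its height the percent of the window under HP1b clusters, and the black bars are medians over windows. The points of X reach 36.0% and lie higher as a group, while the highest point of all is on 2L.

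The number of clusters in a window followed its coverage more closely than their width did. Across the 81 windows, coverage and cluster number had a Spearman's rho of 0.924 in replicate 1 and 0.938 in replicate 2, and coverage and mean cluster width 0.529 and 0.416. Coverage is made of these same measures, and windows share a library, so the values are descriptions and carry no p-value. Neighbouring windows were only weakly alike, with a correlation of 0.0912 and 0.129 between each window and the next (Pearson's r), against 0.147 and 0.177 on 2L, 0.151 and 0.157 on 3L, and 0.0391 and -0.00719 on 3R.

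The replicates gave nearly the same profile. Over the windows of X they had a Pearson's r of 0.981 and a Spearman's rho of 0.980, again as a description across windows. Their coverage differed by a median of 0.998 percentage points and by at most 4.64. Replicate 1 was higher in 55 of the 81 windows and replicate 2 in 26.

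The window of highest mean coverage over the replicates ran from 13000001 to 13250000, with 36.04% in replicate 1 and 35.97% in replicate 2. It was followed by the windows from 6500001 to 6750000 (35.4% and 35.7%) and from 13500001 to 13750000 (34.5% and 36.4%), the last of which was the highest in replicate 2 and, at 42.3%, in the combined list. Next came those from 11250001 to 11500000 (33.3% and 34.2%), from 19500001 to 19750000 (33.2% and 31.2%) and from 9000001 to 9250000 (31.8% and 30.9%). Each of these 6 windows exceeded 99.6% of the arm windows in both replicates. They held 23 to 34 members each, of which 4 to 8 were 5 kb wide or more.

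The 29 members whose middle lies in the window from 13000001 to 13250000 show what dense HP1b coverage looked like. They were 1059 to 11025 bp wide, and 22 of them had counterparts in both replicates, 2 in replicate 1 only, 2 in replicate 2 only and 3 in neither. The widest ran from 13165795 to 13176819 (score 1.71) and was followed after less than 1 kb by a member from 13177708 to 13183167 (score 1.88). The member of highest score, 3.16, ran from 13189613 to 13192192 and was 2580 bp wide. From its start, 14 members no more than 4211 bp apart extended over 67.6 kb to position 13257238 and covered 70.4% of that stretch. In the combined list this run held more members than any run on the arms under the same 5 kb limit. The most on 2L, 3L or 3R was 9 to 10. Of its 14 members, 11 had counterparts in both replicates. Runs were taken from the combined list only, and this one was singled out after its values were seen.

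The emptiest windows lay among denser ones. Coverage was lowest from 7250001 to 7500000, at 2.16% in replicate 1 and 2.19% in replicate 2, where the list of each replicate and the combined list all had 2 clusters. The window from 12000001 to 12250000 had 2.18% and 2.76%, and that from 2750001 to 3000000 had 4.13% and 4.78%. These were the 3 windows below the 10th percentile of the arms in both replicates. The next were those from 4250001 to 4500000 (7.03% and 6.88%), from 9750001 to 10000000 (7.51% and 8.36%) and from 1500001 to 1750000 (8.58% and 7.65%). None of the 6 (0) held a member of 5 kb or more, and their widest member measured 3976 bp.

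Some neighbouring windows differed widely. From the window ending at 13750000 to the next, coverage dropped from 35.5% ± 1.39 to 11.7% ± 2.97 (SD, n = 2), which was the largest step between neighbours at 23.7 percentage points. Coverage fell from 32.2% ± 1.44 to 8.89% ± 0.500 at position 19750000, and rose from 8.12% ± 0.659 to 30.5% ± 1.41 at position 1750000 (SD, n = 2). The median step between neighbouring windows was 7.59 percentage points. The remaining part of X between 20250001 and the limit, which is shorter than a window, had 25.9% ± 0.0908 (SD, n = 2).

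On a scale of 5 Mb the telomere end stood lowest. The 5 Mb from the tip were covered over 15.7% ± 0.834, the following 5 Mb over 20.5% ± 0.532, the stretch from 10 to 15 Mb over 19.7% ± 0.0932 and that from 15 to 20 Mb over 19.4% ± 0.395 (SD, n = 2). The difference between the tip and each of the other 3 stretches was larger than the spread between replicates. Stretches of the same size on 2L, 3L and 3R ranged from 11.7% to 15.7%, so the stretch of X at the tip was at the upper end of the arms and the other 3 were above all of them. The first member began at position 71 of the sequence, with a width of 1291 bp and a score of 1.10.

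Cluster widths on X differed from those of the arms mainly among wide clusters. In replicate 1 the median was 2359 bp on X and 2267 to 2306 bp on the separate arms, and in replicate 2 it was 2309 bp on X and 2247 to 2290 bp on the arms. The 90th percentile was 4967 bp on X and 4035 to 4174 bp on the arms in replicate 1, and 4866 bp and 3886 to 4206 bp in replicate 2. Clusters of 5 kb or more made up 9.93% and 9.34% of X clusters, against 4.87% to 5.13% and 4.65% to 5.76% of those on the arms, and they held 22.9% ± 0.857 of the covered bases on X and 12.2% ± 0.0680 on the arms pooled (SD, n = 2). At the narrow end the 10th percentile was slightly lower on X, at 1687 bp where the arms had 1712 to 1789 bp in replicate 1, and at 1690 bp where they had 1720 to 1791 bp in replicate 2. X was thus above every arm at the median and the 90th percentile and below every arm at the 10th percentile, in both replicates.

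**Figure D3:**
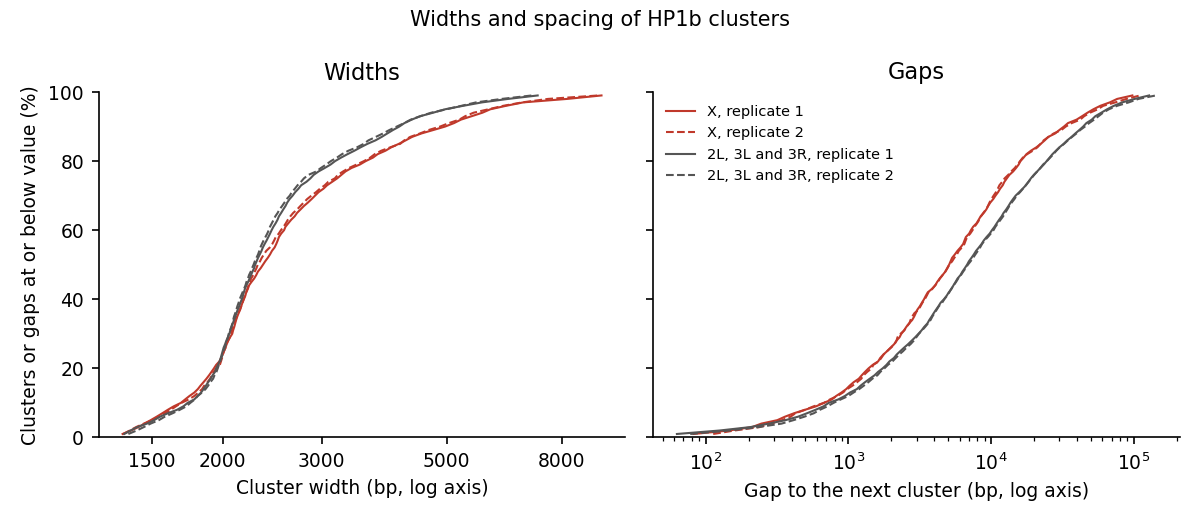
Widths of HP1b clusters (left) and gaps from the end of a cluster to the start of the next (right), in bp on log axes. Lines give the percent of clusters or gaps at or below each value for X (red) and for 2L, 3L and 3R pooled (grey), with replicate 1 solid and replicate 2 dashed. The X line for widths is displaced toward larger values at its upper end, where the 90th percentiles are 4967 and 4866 bp, and that for gaps is displaced toward smaller values along most of its length.

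The widest member that the replicates also covered ran from 8779736 to 8802437, a span of 22.7 kb that each replicate listed as 3 clusters. The next, from 7584459 to 7606100 (21.6 kb), was a single cluster of 21504 bp in replicate 1 and 21585 bp in replicate 2. Its window was covered over 14.8%, this member included, and held 7 clusters in each replicate. The member from 14100648 to 14117724 measured 17.1 kb, that from 11480209 to 11496451 measured 16.2 kb, and those beginning at 3564523 and 6587405 measured 13.6 and 13.5 kb.

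The remaining 4 of the 10 widest began at 3632643, 4823090, 5785019 and 6752044 and measured 11.7 to 12.9 kb. Of these 10 members, 3 were a single cluster in both replicates and 7 were split in at least 1 of them, so their widths depend on where neighbouring clusters were joined. Their scores ranged from 1.21 to 2.47. Over all members, 4.98% were split into 2 or 3 clusters in at least 1 replicate, against 2.25% to 3.20% on the separate arms.

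Clusters on X followed each other at shorter distances. Gaps, runs and long stretches without clusters are not independent of the higher density on X, and whether spacing differed beyond it was not tested. The median gap on X measured 5073 bp in replicate 1, where the arms had 6569 to 6859 bp, and 5086 bp in replicate 2, where they had 6540 to 7133 bp. Gaps under 5 kb made up 49.6% and 49.4% of gaps on X, against 41.7% and 41.5% on the arms pooled. Gaps of 20 kb or more made up 16.5% and 16.6% on X, against 23.8% and 23.95%. Of the gaps on X, 14.5% ± 0.218 were under 1 kb, against 12.4% ± 0.494 on the arms pooled (SD, n = 2). The difference in percentage points was smaller here, as were the shares themselves. In the combined list 71 runs of at least 5 members with gaps under 5 kb held 28.8% of the members of X, against 15.9% to 21.7% of clusters on the arms, and 22.3% of the members stood alone, against 30.8% to 34.6%.

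Long stretches without HP1b clusters were present on X, though fewer than on the arms. Gaps of 50 kb or more numbered 75 in replicate 1 and 77 in replicate 2 and took up 29.1% and 31.4% of the sequence, against 35.9% and 39.2% on the arms pooled. Their number per Mb was 3.67 and 3.77, against 4.00 to 4.56 and 4.13 to 4.63 on the separate arms. The longest in the combined list ran from 7361819 to 7544849 (183 kb), where replicate 1 had no cluster and a single cluster of replicate 2 reached 16 bp into it.

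The stretches from 2783223 to 2932956 (149.7 kb) and from 7632354 to 7781767 (149.4 kb) held no cluster in either replicate. Those from 12098783 to 12229350 (130.6 kb), from 3863942 to 3994123 (130.2 kb) and from 18552889 to 18676409 (123.5 kb) were free of clusters but for 28, 34 and 10 bp at an edge in replicate 1. The first and the third of these 6 stretches lie to the left and right of the 21.6 kb member at 7584459, with other members in between. The last is bordered by members of high score, 3.40 on the left and 2.98 on the right.

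The authors' score was distributed differently on X, with few clusters among the lowest scores and a share slightly below its overall share among the highest. Clusters of X, 2L, 3L and 3R were ranked together by score within each list and divided into deciles, from 1 (lowest) to 10 (highest). X held 27.0% of these clusters in replicate 1 and 27.3% in replicate 2. It held 7.24% and 5.64% of decile 1, 29.8% to 36.02% of deciles 3 to 8 in replicate 1 and 29.6% to 34.9% in replicate 2, and 24.9% and 23.5% of decile 10. Per Mb, clusters of decile 8 were 1.91 and 1.69 times as dense on X as on the arms, those of decile 10 1.13 and 1.05 times, and the 100 clusters of highest score 0.850 and 0.747 times. The direction of the difference in density therefore depended on the range of score.

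**Figure D4:**
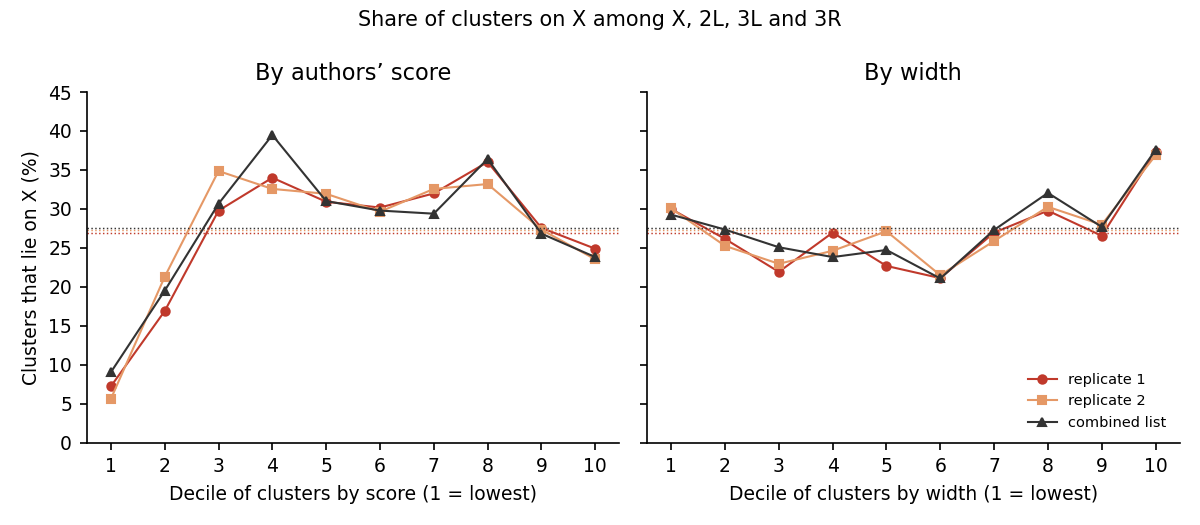
Percent of clusters that lie on X, among clusters of X, 2L, 3L and 3R ranked by the authors' score (left) or by width (right) and divided into deciles, from the lowest (1) to the highest (10). Lines show replicate 1, replicate 2 and the combined list, and dotted lines the percent over all clusters of each list. Decile 1 by score has 7.24%, 5.64% and 9.06% on X, and decile 10 by width has 37.3%, 36.9% and 37.6%.

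Narrow clusters scored higher on X than on the arms. For clusters under 2 kb the median score on X was 0.590 in replicate 1 and 0.555 in replicate 2. On 2L, 3L and 3R the same medians were 0.416, 0.417 and 0.412 in replicate 1 and 0.379, 0.390 and 0.372 in replicate 2. The 3 arms lay close together, and X stood above them by 0.176 in replicate 1 and 0.175 in replicate 2 relative to the arms pooled. For clusters of 2 to 3 kb the medians were nearly equal, 1.198 on X and 1.16 on the arms in replicate 1 and 1.23 and 1.22 in replicate 2. Among wider clusters X stood above the arms pooled again, by 0.230 at 3 to 4 kb, 0.188 at 4 to 5 kb and 0.220 at 5 to 10 kb in replicate 1. In replicate 2 the same differences were 0.0285, 0.0589 and 0.200. At 4 to 5 kb, however, the median of 2L was above that of X, at 1.86 against 1.79 in replicate 1 and 2.02 against 1.86 in replicate 2. At 3 to 4 kb 2L was above X in replicate 2, at 1.63 against 1.55. X was above each of the 3 arms in both replicates under 2 kb and at 5 to 10 kb. At 10 kb or more the difference was -0.0907 and -0.270, on 10 and 9 clusters of X against 9 and 5 of the arms. In the combined list the differences from the narrowest class to the widest were 0.124, -0.0205, 0.0541, -0.00174, 0.134 and 0.0943. The sign at 10 kb or more was thus opposite to that in the replicates.

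The lowest score listed on X was 0.166 in replicate 1 and 0.263 in replicate 2, against 0.0656 to 0.0841 and 0.0298 to 0.0968 on the arms. In the combined list the lowest score was 0.0396 on X and 0.00106 to 0.0104 on the arms. Weak clusters were therefore listed down to lower scores on each of the 3 arms than on X, in all 3 lists. Neither the formula of the score nor the threshold of the caller is known here. The lists hold no read depth and the labels give no sex, so whether the copy number of X in these flies and the depth on X bear on the scores and on the listing of weak clusters was not tested.

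The member of highest score, 4.00, ran from 16732888 to 16735466 and ranked 6 among all clusters of the combined list, 7 in replicate 1 (score 3.93) and 6 in replicate 2 (4.14). The second, from 13888352 to 13891954, had a score of 3.75 and ranked 17 in replicate 1 and 12 in replicate 2. It lay in a window covered over 11.7% as the mean of the replicates, which is below the median of X windows (17.6%). The third, from 2596774 to 2599710 (3.54), ranked 62 in replicate 1 and 36 in replicate 2.

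The members beginning at 14130849, 17595718, 18550208, 1772535, 17994183, 5222262 and 7794169 completed the 10 highest, with scores of 3.28 to 3.41. Of these 10, 9 were 2.58 to 3.60 kb wide and the member at 5222262 was 5.59 kb wide. The windows around them had mean coverages from 11.7% to 30.5%. Members of high score thus occurred in windows below and above the median of X windows (17.6%). No member was among both the 10 highest by score and the 10 widest.

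Most members had a counterpart in each replicate list. The combined list is that of the replicate set, so it is not independent of the 2 replicate lists. In each replicate, 99.8% of X clusters overlapped a cluster of the combined list. Of 1585 members, 1159 (73.1%, Wilson 95% interval 70.9% to 75.2%, for counting error only) overlapped clusters of both replicates by at least 1 bp. Over the whole combined list the share was 75.0%, and on 2L, 3L and 3R together 77.1%, so the members lay slightly below both. A further 134 members overlapped replicate 1 only, 94 replicate 2 only and 198 (12.5%) neither, the last against 9.76% to 10.1% on the separate arms. From the side of the replicates, 89.7% of X clusters of replicate 1 and 92.4% of those of replicate 2 overlapped a cluster of the other, against 89.3% to 90.8% and 92.9% to 94.7% on the arms.

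Members with counterparts in both lists scored 1.24 at the median and were 2661 bp wide at the median. The 198 without any scored 0.436 and were 1300 bp wide at the median, and 99 of them fell short of 1301 bp, the smallest width in either replicate list. The highest score among them was 2.14, for a member of 1114 bp from 12689049 to 12690162.

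Within the same quintile of score, members on X were matched less often than clusters of the arms. In quintile 2 of the combined scores, from 0.356 to 0.583, 36.7% of 403 members had counterparts in both replicates, against 69.9% of 745 clusters on the arms. In quintile 1 the shares were 11.6% and 27.8%, and in quintile 3 they were 94.0% and 98.5%. In quintile 5 they were 99.7% and 99.8%. The difference thus lay in the range of weak scores. A like score need not stand for a like strength, as scores reached lower on the arms. The 10th percentile of the combined scores was 0.354 on X and 0.225 on the arms pooled, so quintile 2 began near it on X only. Whether scores of X and of the arms are comparable was not tested.

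**Figure D5:**
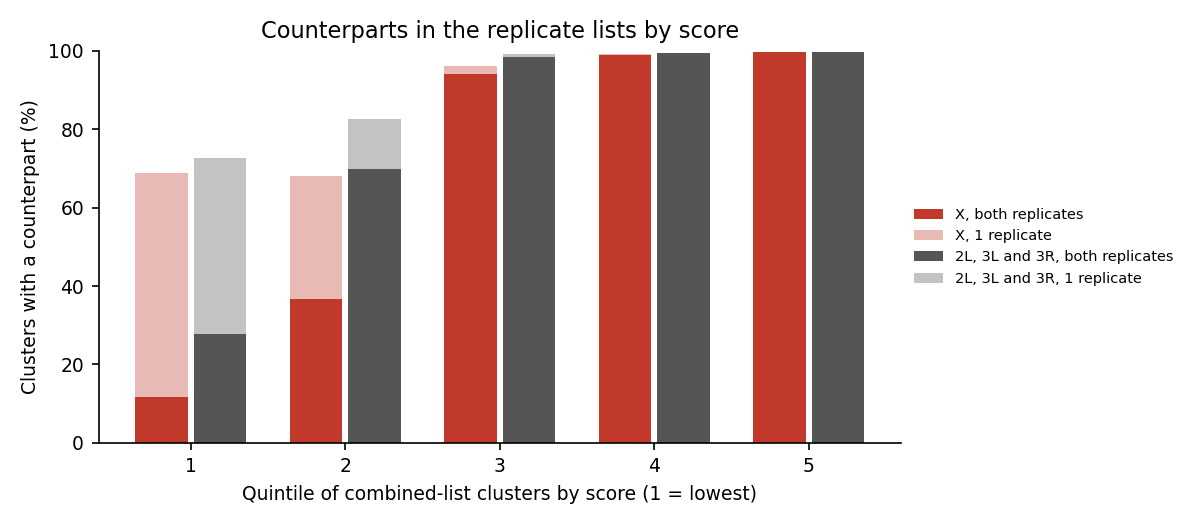
Percent of combined-list clusters that overlap clusters of both replicates (full colour) or of 1 replicate (pale), by quintile of the score from the lowest (1) to the highest (5), for X (red) and for 2L, 3L and 3R pooled (grey). In quintile 2, 36.7% of X members and 69.9% of arm clusters are matched in both replicates.

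Where a member matched a single cluster in each replicate, the edges were placed alike. Among 1081 such members the start differed between replicates by a median of 55 bp and the end by a median of 55 bp, where the arms had 40 to 44 bp for starts and 39 to 45 bp for ends. Starts lay within 250 bp of each other in 87.6% of these members and ends in 87.1%. The widths in the replicates had a Spearman's rho of 0.914 and the scores 0.941, across members, which are not independent. The cluster was wider in replicate 1 for 643 (59.5%), with a median difference in width of -33 bp for replicate 2 minus replicate 1.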

How the data were processed

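Per the submitters' processing notes Bowtie 0.12.7 was used, and per the file headers the genome was FlyBase release 5. The caller of the clusters, its cut-off, any read filter and the use of the inputs are not stated in the sources at hand. The deposited lists give start, end and a score per cluster. The score is the authors' own, of unstated formula and scale, and served only to rank or describe clusters within a list. Each ChIP replicate has its list, and a further one is combined in a way that is not stated. Read totals are unknown, so precision is given as the SD of 2 replicates.

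Samples were grouped by title. On X, 2L, 3L and 3R, clusters lying wholly outside the 2 Mb next to the centromere were kept. Coverage is the percent of sequence length under clusters, and 250 kb windows were counted from the telomere end. A cluster was counted in the window that holds its middle. Interval functions were checked on simulated data. Python 3.11.15, numpy 2.4.6, pandas 2.3.3, scipy 1.17.1 and matplotlib 3.10.9 were used. Members, comparisons and alternatives were chosen with earlier results of these data known. Among members covered over at least 50% of their length in each replicate, the 10 of highest score and the 10 widest are named. Also named are the 6 densest and 6 emptiest windows, the 6 longest gaps and the members of the densest window. Alternatives were other windows, lists, arm limits, width, score and overlap minimums, joining at 1 kb and each replicate alone.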

Additional observations from a re-analysis of the deposited data

How the results depend on the processing

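X stayed above the arms in coverage, density and mean width under all 24 alternatives for these ratios, and the sizes moved. These alternatives did not include the ranges of score where the density ratio was below 1 in both replicates. Among such ranges were decile 1 by score (0.266 and 0.203) and the 100 clusters of highest score (0.850 and 0.747). The ratios of coverage, density and mean width were 1.38, 1.26 and 1.09 over both replicates. They were 1.44, 1.30 and 1.11 in the combined list, 1.41, 1.29 and 1.09 against whole arms, and 1.62, 1.44 and 1.13 with the clusters at or above each list's median score. Coverage and width ratios were 1.42 and 1.11 with clusters of at least 2 kb. Density and width ratios were 1.23 and 1.12 with clusters joined at 1 kb. With clusters at or above the 90th percentile of score of each whole list, all chromosomes included, they were 1.10 and 1.25. That alternative was chosen after seeing the data, and its set is not decile 10 above. There the width ratio exceeded the density ratio, unlike over all clusters. Without replicate 1 or replicate 2 in turn, coverage ratios were 1.37 to 1.39, density ratios 1.25 to 1.27 and width ratios 1.09 to 1.09.

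The median window of X (17.6%), its coefficient of variation (0.442) and the percent of windows above the 90th arm percentile (32.1%) were 16.96%, 0.619 and 27.5% with 100 kb windows and 19.2%, 0.306 and 46.2% with 500 kb windows. With windows shifted to begin at the middle of the former ones they were 18.3%, 0.411 and 33.95%, in the combined list 21.2%, 0.406 and 38.3%, and with higher-scoring clusters 12.04%, 0.518 and 37.7%. Leaving out each replicate gave 17.4% to 17.9%, 0.431 to 0.453 and 30.9% to 33.3%. Gaps under 5 kb (49.5%) were 40.96% after joining at 1 kb, 54.4% in the combined list and 36.3% among higher-scoring clusters, and 49.4% to 49.6% without either replicate. Members matched in both replicates were 98.7% of the higher-scoring and 78.9% of those at least as wide as the narrowest replicate cluster. Larger windows average over more sequence, and fewer clusters cover less of a window and leave longer gaps, by construction. Joining at 1 kb removes the shortest gaps, also by construction. The cause of the other moves was not tested. No paired analysis was possible because the only samples that share replicate numbers are ChIP and input, and no list of the inputs was among the files used here. Without read totals, little can be said of weak clusters.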
